A study of Mus musculus with 48 samples.

Results

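Many genes are represented on this array by several probesets, each a group of short probes read out as 1 log2 value. The brightest probeset of a gene is taken here as the one with the highest mean over all mice, and every other single-gene probeset is called secondary. Described here are the 200 secondary probesets, of 16746 on the array, whose level from mouse to mouse went most closely with that of Malat1. The members were chosen by measured values: the mean of the mice of its group was subtracted from every value, and the secondary probesets were ranked by Pearson's r over 48 mice with the mean of all Malat1 probesets, Malat1 itself left out. The 200 chosen probesets, called members below, belonged to 179 genes, and each was set beside the brightest probeset of its own gene, called its partner.

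Hippocampus was taken from 48 adult male C57BL/6J mice, 6 in each of 8 groups, with 1 array per mouse. The 24 mice of the chronic intermittent ethanol (CIE) groups went through 4 cycles of ethanol vapor inhalation at 10 to 13 mg/l of air, with 4 days of 16 h in the chamber and 7 days of abstinence per cycle, and were injected before each cycle with 1.6 g/kg ethanol and 1 mmol/kg pyrazole, an inhibitor of alcohol dehydrogenase. The 24 Ctrl mice breathed air in control chambers and were injected with saline and the same dose of pyrazole, so pyrazole and time in a chamber were common to all groups. Time points were 0h, 8h, 72h and 7d, counted from the end of vapor exposure, and the questions here were how these probesets differed between CIE and Ctrl at each time and whether their partners differed as well. Transcripts of a mixed tissue were measured, so fewer cells of a type and less RNA per cell cannot be told apart.

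Malat1 is a long noncoding RNA that stays in the nucleus, where it gathers in speckles, the bodies around which splicing factors are stored and delivered to sites of transcription. It is among the most abundant noncoding transcripts of neurons. A protein-coding gene can yield several transcripts that differ in splicing or in the site at which the 3′ end is cut, and its unspliced precursor is also present in the nucleus. Probesets for the same gene can therefore read different RNAs. The probe sequences were not used here, so no probeset is assigned to an exon, an intron or a transcript.

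The window upstream of the transcription start is shown for Malat1, the reference of the ranking, and for Chic1, Atrx and Gmfb. Each of these 3 genes had a member that stood high in the ranking. Atrx and Gmfb had 3 members each, and the lowest of Gmfb was the last member of the ranking. Each is the 250 bases before the start as given by RefSeq on build GRCm38.p6, read 5′ to 3′ on the strand of the gene. Capitals mark matches, on either strand, to 5 motifs: the GC box (GGGCGG), the sequence of the CCAAT box, the TATA box (read as TATAAA here), the core of the cAMP response element, which is TGACGT, and the E-box in its CACGTG form. The Malat1 window lies at chr19:5802673-5802922 on the minus strand, Chic1 at chrX:103356226-103356475 on the plus strand, Atrx at chrX:105929373-105929622 on the minus strand and Gmfb at chr14:46822243-46822492 on the minus strand.
Malat1: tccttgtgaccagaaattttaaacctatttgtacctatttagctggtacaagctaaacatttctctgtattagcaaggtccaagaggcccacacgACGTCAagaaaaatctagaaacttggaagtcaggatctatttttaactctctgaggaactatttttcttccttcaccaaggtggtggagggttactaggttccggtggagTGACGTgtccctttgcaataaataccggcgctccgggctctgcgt
Chic1: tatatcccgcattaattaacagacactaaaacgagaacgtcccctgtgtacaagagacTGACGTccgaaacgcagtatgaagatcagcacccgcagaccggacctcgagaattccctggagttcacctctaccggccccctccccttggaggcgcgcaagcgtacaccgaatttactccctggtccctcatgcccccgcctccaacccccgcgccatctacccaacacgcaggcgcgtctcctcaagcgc
Atrx: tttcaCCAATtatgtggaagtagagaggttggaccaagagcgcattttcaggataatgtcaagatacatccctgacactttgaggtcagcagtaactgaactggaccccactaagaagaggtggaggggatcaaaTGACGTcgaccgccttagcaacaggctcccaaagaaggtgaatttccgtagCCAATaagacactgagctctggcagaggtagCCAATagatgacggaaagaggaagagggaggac
Gmfb: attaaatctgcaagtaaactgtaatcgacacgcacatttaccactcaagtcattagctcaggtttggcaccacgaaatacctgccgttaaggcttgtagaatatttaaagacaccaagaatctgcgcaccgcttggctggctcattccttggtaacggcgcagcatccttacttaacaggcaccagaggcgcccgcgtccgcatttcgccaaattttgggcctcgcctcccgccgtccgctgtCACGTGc
TGACGT was found in the windows of Malat1, Chic1 and Atrx. Of the member genes, 149 of 179 had such a window, and 15.4% of those held TGACGT, against 9.95% of 7204 genes with a secondary probeset and 6.56% of all 27025 windows. GGGCGG was found in 69.1% of member genes, 58.0% of genes with a secondary probeset and 32.9% of all windows. For CCAAT these shares were 34.2%, 35.1% and 34.5%, for TATAAA 10.1%, 7.05% and 13.0%, and for CACGTG 10.1%, 7.94% and 6.05%. A match is only a run of letters and was not tested for binding.

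The members are named for Malat1, and that name was checked against the 7 Malat1 probesets. Of these, 5 went with the members and 2 did not. The r with the mean of all members over 48 mice, group means removed, was 0.965 for 1418189_s_at, 0.952 for 1438403_s_at, 0.935 for 1418188_a_at, 0.903 for 1452378_at and 0.834 for 1427285_s_at. The remaining pair, 1429060_at and 1436202_at, had r of -0.210 and -0.184, and 1429060_at was the brightest Malat1 probeset, with a mean log2 value of 11.44. Ranking on that probeset alone would have shared 0 of the 200 members. The members are therefore best described as secondary probesets that followed 5 of the 7 Malat1 probesets. These correlations are part of how the members were chosen and were given no test.

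**Figure D1:**
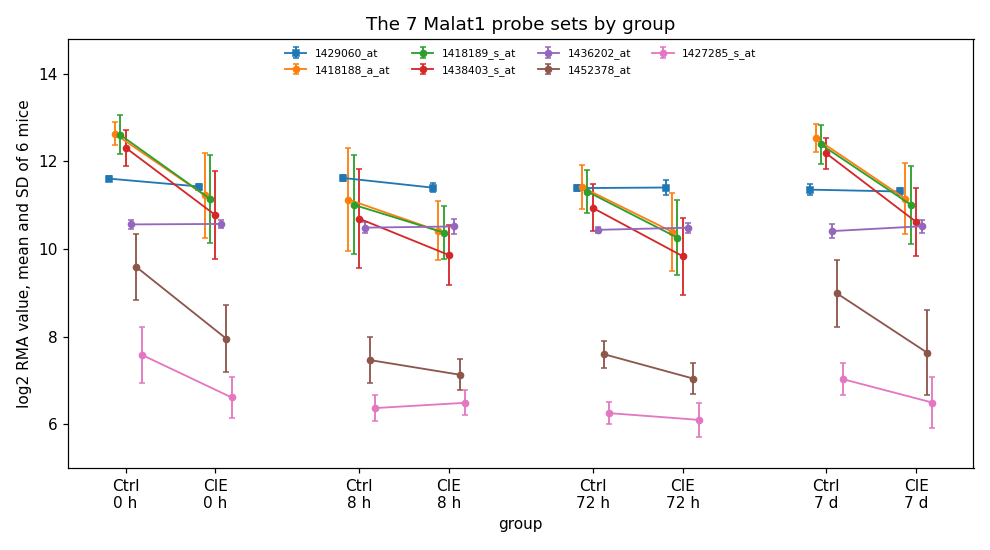
Log2 level of the 7 Malat1 probesets in each of the 8 groups, as mean and SD of 6 mice, with 1 colour per probeset and Ctrl joined to CIE at each time. 1429060_at, the brightest (squares), and 1436202_at stay nearly level over the groups, while the other 5 are higher in Ctrl at 0h and 7d.

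The members' r with the Malat1 mean ran from 0.869 to 0.979 with a median of 0.902, as the ranking fixed. The partners, which the ranking did not use, had a median r of -0.113, with a range from -0.730 to 0.943. The median over all secondary probesets was -0.036 and over all brightest probesets -0.168, so the partners of the members lay near the rest of the array. Only 3 of 179 partners reached the members' threshold, 20 lay above 0.5, 138 between -0.5 and 0.5, and 21 below -0.5. The 3 were those of Thoc2, a subunit of the mRNA export complex TREX (0.943), Srrm2, a scaffold protein of nuclear speckles (0.903), and Csnk2a1, a catalytic subunit of casein kinase 2 (0.876). At the low end stood the partners of Wbp11, a spliceosome-associated protein (-0.730), Edrf1 (-0.669) and Ankrd11, a chromatin regulator (-0.663).

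**Figure D2:**
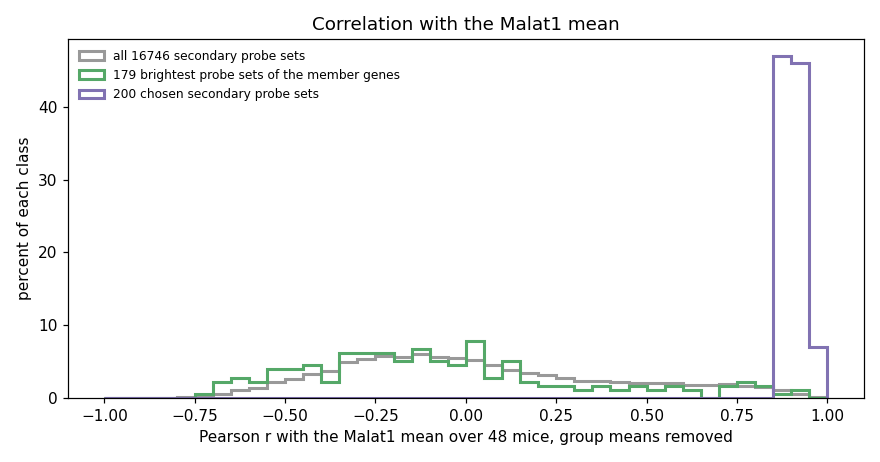
Distribution of Pearson's r with the Malat1 mean over 48 mice, group means removed, for the 200 members, their 179 partners and all 16746 secondary probesets. The members lie above 0.869 by choice, and the partners centre at -0.113.

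Across the whole array, 264 probesets reached the r of the last member. They comprised the 200 members, which were 1.19% of secondary probesets, 17 brightest probesets (0.0934% of those), 4 Malat1 probesets, 5 probesets with several symbols (0.536%) and 38 with no symbol (0.415%). Just inside the threshold lay members of Golga4 (0.8691), Alkbh5 (0.8690), B3galt1 and Csnk2a1 (both 0.8687) and Gmfb (0.8686), and just outside it lay Alg11 (0.8685), Lims1 (0.8684), Ezh1 (0.8683), Rcor1 (0.8682) and Kif1b (0.8682). The threshold thus fell within a continuous series of values.

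The ranking was repeated on part of the mice to see whether it held in mice it had not used. Secondary probesets ranked in the 24 Ctrl mice had a median r with Malat1 of 0.920 in the 24 CIE mice, where their partners had -0.232 and all secondary probesets -0.020. Ranked in the CIE mice, they had 0.836 in the Ctrl mice, where their partners had -0.154 and all secondary probesets -0.036. In each direction 199 of 200 exceeded 0.5 in the other mice, against 18.1% and 13.0% of all secondary probesets. Of the 200 members, 149 were also chosen in the Ctrl mice alone and 141 in the CIE mice alone.

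Probesets that each go with the Malat1 mean this closely must also go with one another, so the agreement among members is largely set by the ranking. The median r between members was 0.870 and the lowest 0.619, against 0.0595 between partners, and the median r of a member with its own partner was -0.0616. The mean of the 200 members varied from mouse to mouse with an SD of 0.397 after removal of group means, close to 0.418 for the Malat1 mean, while the mean of the partners varied with an SD of 0.0250. For a single probeset, the median SD was 0.411 for members, 0.0942 for partners and 0.139 for all secondary probesets. Because the members rose and fell together, the counts of members given below are not counts of independent events.

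Shared features that the ranking did not use were the probeset type, the source of the probes and the genes. The _at type made up 78.5% of members against 74.5% of secondary probesets, _a_at 15.0% against 12.2%, _s_at 4.5% against 5.20% and _x_at, whose probes can match related genes, 2.0% against 8.10%. Probesets designed from expressed sequence tags made up 68.0% of members against 56.9%, and those from RefSeq records 7.5% against 11.2%. Of the 179 member genes, 178 were protein coding, and their median span was 50.9 kb, against 29.8 kb for all genes with a secondary probeset. Member genes had a median of 4 probesets against 2. The members' signal had a median of 7.97, from 5.43 to 11.59, and lay a median of 2.23 log2 units below the partner, against 1.95 for all secondary probesets. Since probes differ in affinity, such a gap is no measure of relative transcript amount.

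The member genes had further secondary probesets that were not members. By the ranking, all members lie above the threshold and these lie below it, so only how far below is a description of the data. The 179 genes had 580 secondary probesets, and the 380 that were not members had a median r of 0.127, with 161 of them below 0. Atrx, a chromatin remodeler of heterochromatin, had 3 members with r from 0.928 to 0.962, a partner at -0.137 and 3 further probesets from -0.394 to 0.593. Gmfb, glia maturation factor beta, had 3 members from 0.869 to 0.956, a partner at -0.111 and 1 further probeset at -0.192. Kdm5a, a demethylase of histone H3 lysine 4, had 2 members at 0.941 and 0.952 and a partner at -0.255, with 3 further probesets between -0.682 and -0.204. The members of Washc4, a subunit of the endosomal WASH complex, lay at 0.939 to 0.954 and its partner at 0.421. Ttc14 had 10 probesets in all, of which 3 were members, and its 6 others besides the partner ran from -0.214 to 0.839. The probesets below the threshold thus covered a wide range, also within a gene.

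By function, the members were searched for lists of genes tied to Malat1 and to chromatin. Splicing factors and nuclear speckle proteins had a member in 12 of 62 genes with a secondary probeset (19.4%), and chromatin regulators in 11 of 59 (18.6%), against 179 of 9009 of all such genes (1.99%). These shares per gene also depend on how many probesets a gene has. Counted per secondary probeset, members were 13 of 200 in the splicing list and 15 of 157 in the chromatin list, against 200 of all 16746 (1.19%). Paraspeckle proteins had a member in 1 of 9, Sfpq, long neuronal genes in 2 of 63, the calcium channel subunit Cacnb4 and the RNA-binding protein Celf2, and nuclear noncoding RNAs in 0 of 14. Of the cell type marker lists, astrocytes alone had a member, Slc1a2, the main astrocytic glutamate transporter. The lists were drawn up with earlier results of these data known, and no test was made of them.

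Before the group comparisons, the arrays themselves were compared. Array medians lay between 6.60 and 6.63 and r between arrays between 0.974 and 0.998. Neuron markers were bright, from Slc17a7 at 8.72 to Snap25 at 13.30, hippocampal principal cell markers lay between 9.06 and 12.44, and blood markers between 4.48 and 6.06. The mean log2 level of each of 12 marker lists was taken from the brightest probeset of each gene. It had a Pearson r with the member mean between -0.24 and 0.27 over 48 mice, group means removed. By rank the lowest value was -0.31 (choroid plexus). Without the 2 mice farthest from the median of a list, the lowest r was -0.30 (thalamus). Secondary probesets of the marker genes differed from this. Their median r with the Malat1 mean ran from -0.185 (choroid plexus, 5 probesets) to 0.725 (interneuron, 2 probesets). It was 0.489 for the 10 of neuron markers, against -0.036 for all secondary probesets. Exactly equal values joined 47 of the arrays into 6 sets of 7 or 8, with 1 mouse per group except that 1 set lacked Ctrl 0h, and Ctrl mouse 2 (0h) was in none. No label names such sets.

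The mean of the 200 members was lower in CIE than in Ctrl mice at each of the 4 times, with overlap between the groups at every time. At 0h it was 8.85 ± 0.32 (SD, n = 6) in Ctrl, with lowest, median and highest mouse at 8.58, 8.78 and 9.42, and 8.05 ± 0.57 in CIE, with 7.30, 8.00 and 8.78. At 7d it was 8.77 ± 0.38 in Ctrl (8.26, 8.88 and 9.12) and 8.01 ± 0.52 in CIE (7.23, 7.96 and 8.77). The differences were -0.80 and -0.76, and in 31 and 32 of the 36 pairs of mice the CIE mouse was lower. At 8h the means were 7.98 ± 0.54 in Ctrl (7.01, 8.06 and 8.61) and 7.52 ± 0.32 in CIE (7.16, 7.57 and 7.96), a difference of -0.46 with 29 of 36 pairs. At 72h they were 8.09 ± 0.24 (7.76, 8.11 and 8.35) and 7.53 ± 0.43 (6.96, 7.64 and 7.91), a difference of -0.56 with 30 of 36 pairs. Ctrl mice were thus high at 0h and 7d and low at 8h and 72h, near the CIE mice of 0h and 7d. The group mean of the partners lay between 10.40 and 10.44 in all 8 groups.

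**Figure D3:**
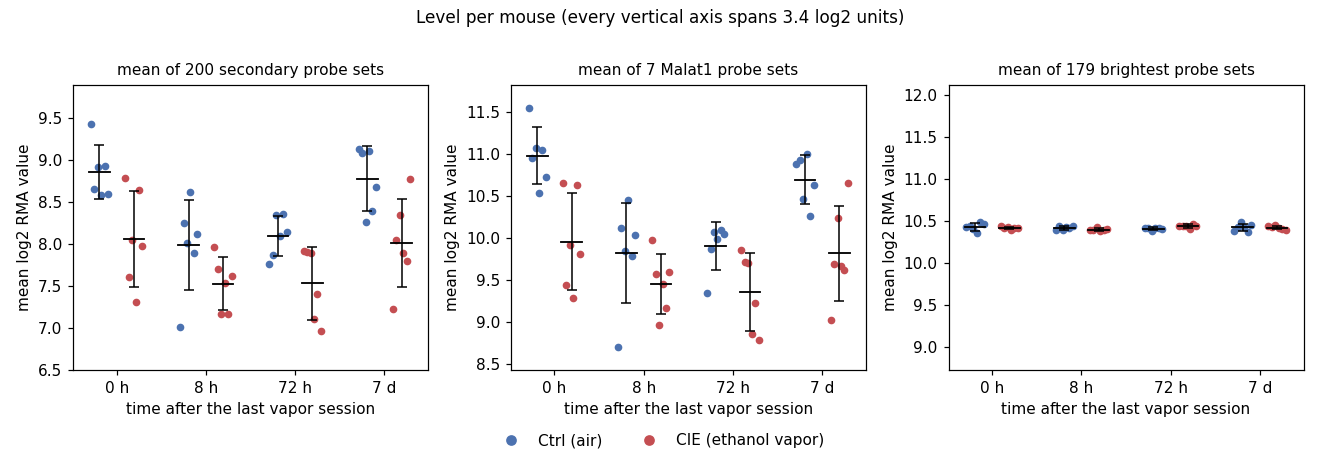
Mean log2 level of the 200 members, of their 179 partners and of the Malat1 probesets in each of the 48 mice, by treatment and time, with group means and SD. The member mean is lower in CIE at each time with overlapping groups, by -0.80, -0.46, -0.56 and -0.76, and the partners' group means lie between 10.40 and 10.44.

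Within the array sets, where 1 CIE mouse could be set against 1 Ctrl mouse, the member mean was lower in the CIE mouse in 3 of 5 sets at 0h (mean difference -0.67), 5 of 6 at 8h (-0.46), 4 of 6 at 72h (-0.56) and 4 of 6 at 7d (-0.76). The differences ran from -1.62 to 0.12 at 0h and from -1.90 to 0.09 at 7d. At 8h the set with the opposite sign differed by 0.95. Where all 6 sets held a CIE and a Ctrl mouse, at 8h, 72h and 7d, the mean over sets is the same number as the group difference by construction, and the sets add only the spread. At 0h, where Ctrl mouse 2 drops out, the difference went from -0.80 to -0.67.

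Malat1 itself was lower in CIE mice in the mean of its 7 probesets. At 0h it was 9.96 ± 0.58 in CIE and 10.99 ± 0.35 in Ctrl, a difference of -1.03 (exact two-sided permutation test with 924 arrangements of 12 mice, p = 0.00866, adjusted over the 4 times 0.0260, CIE lower in 34 of 36 pairs). At 7d it was 9.82 ± 0.56 and 10.70 ± 0.29, a difference of -0.88 (exact p = 0.0130, adjusted 0.0260, 33 of 36 pairs). At 72h the difference was -0.55 (exact p = 0.0411, adjusted 0.0548) and at 8h -0.37 (exact p = 0.216, adjusted 0.216), so neither passed 0.05 after adjustment. Among single Malat1 probesets, limma called only 1452378_at, at 0h (-1.63, SE 0.36, adjusted p = 0.0040). Its values were 8.84, 9.40 and 10.92 in Ctrl (lowest, median, highest) and 7.20, 7.78 and 8.96 in CIE. The brightest Malat1 probeset differed by -0.18, -0.22, 0.01 and -0.04 at the 4 times, and 1438403_s_at, which went with the members, by -1.54, -0.83, -1.10 and -1.56. The Malat1 probesets that went with the members were not alike in this, as 1427285_s_at differed by -0.97, 0.12, -0.15 and -0.54.

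At 0h, right after the last session, 24 of the 200 members were called lower in CIE mice and 0 higher, at an adjusted p of 0.01 or less in limma over all probesets. That is 12.0% of members, where 1.41% of all secondary probesets were called lower and 0.818% higher. All 200 differences were negative, with a median of -0.77 (1.71-fold lower) and a range from -1.69 to -0.11, against a median of 0.00 over all secondary probesets, and 180 had an unadjusted p below 0.05, as did 21.6% of all secondary probesets. Of the 179 partners, Ppp2r5c, a regulatory subunit of protein phosphatase 2A, rose by 0.35 (adjusted p = 0.0034 in limma) and Dzip3, a ubiquitin ligase, fell by 0.20 (0.0058), where 1.64% of all brightest probesets were called. The partners had a median difference of -0.00 and a range from -0.78 to 0.35. Their median SE was 0.0604, against 0.247 for members, so smaller differences could be called in partners than in members. The count of members depended on single mice, 2 without CIE mouse 57, 3 without Ctrl mouse 2, 6, 10 and 11 without CIE mice 19, 43 and 72, 12 and 13 without Ctrl mice 56 and 20, and 68 without CIE mouse 11, and it was 0 with the array sets as a block.

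Several of the 24 genes act in transcription, splicing or chromatin. The largest decreases among them were in Cfap97 (-1.50, SE 0.31, adjusted p = 0.0023), Ddx46, a helicase of the spliceosome (-1.45, SE 0.29, 0.0019), Helz, an RNA helicase (-1.39, SE 0.29, 0.0027), and Ubtf, a transcription factor of RNA polymerase I (-1.33, SE 0.30, 0.0051), all from limma. Further splicing and speckle proteins among them were Luc7l of the U1 particle (-1.24), Rbm5 (-1.23), Srrm2 (-1.10) and Sfpq, a splicing and paraspeckle protein (-0.82). Chromatin proteins were the remodelers Chd4 (-1.14, 1 of its 2 members), Bptf (-0.99) and Chd2 (-0.82) and the heterochromatin protein Cbx5 (-1.12). Others had quite different roles, such as Itsn2, an endocytic scaffold (-1.24), Kcnj9, a subunit of G protein-gated potassium channels (-1.0), Vti1a, a vesicle fusion protein (-0.89), and Irf3, an antiviral transcription factor (-0.88). Cfap97 had values of 7.28, 7.88 and 8.47 in Ctrl (lowest, median, highest) and 5.52, 6.22 and 7.33 in CIE. Its groups overlapped at their edges, while those of Chd4 did not, with 9.10, 9.29 and 10.03 in Ctrl and 7.45, 8.35 and 9.04 in CIE. Such ranges were read for a few genes only, and the share of members or of all probesets without overlap was not counted.

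The highest-ranked member, that of Pde4dip, which anchors phosphodiesterase at the Golgi apparatus and centrosome, was not called at 0h. It had 8.15, 8.40 and 9.34 in Ctrl and 6.59, 7.33 and 8.21 in CIE, a difference of -1.13 (SE 0.30, adjusted p = 0.018 in limma). The 3 Atrx members differed by -1.57, -1.53 and -1.69 (adjusted p = 0.030, 0.031 and 0.014), with 8.58, 9.20 and 10.29 in Ctrl and 6.27, 7.54 and 9.20 in CIE for the first of these. The Atrx partner lay between 11.80 and 12.05 in Ctrl and between 11.79 and 11.93 in CIE. A wide spread among the mice of a group thus went with a large difference that was not called.

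**Figure D4:**
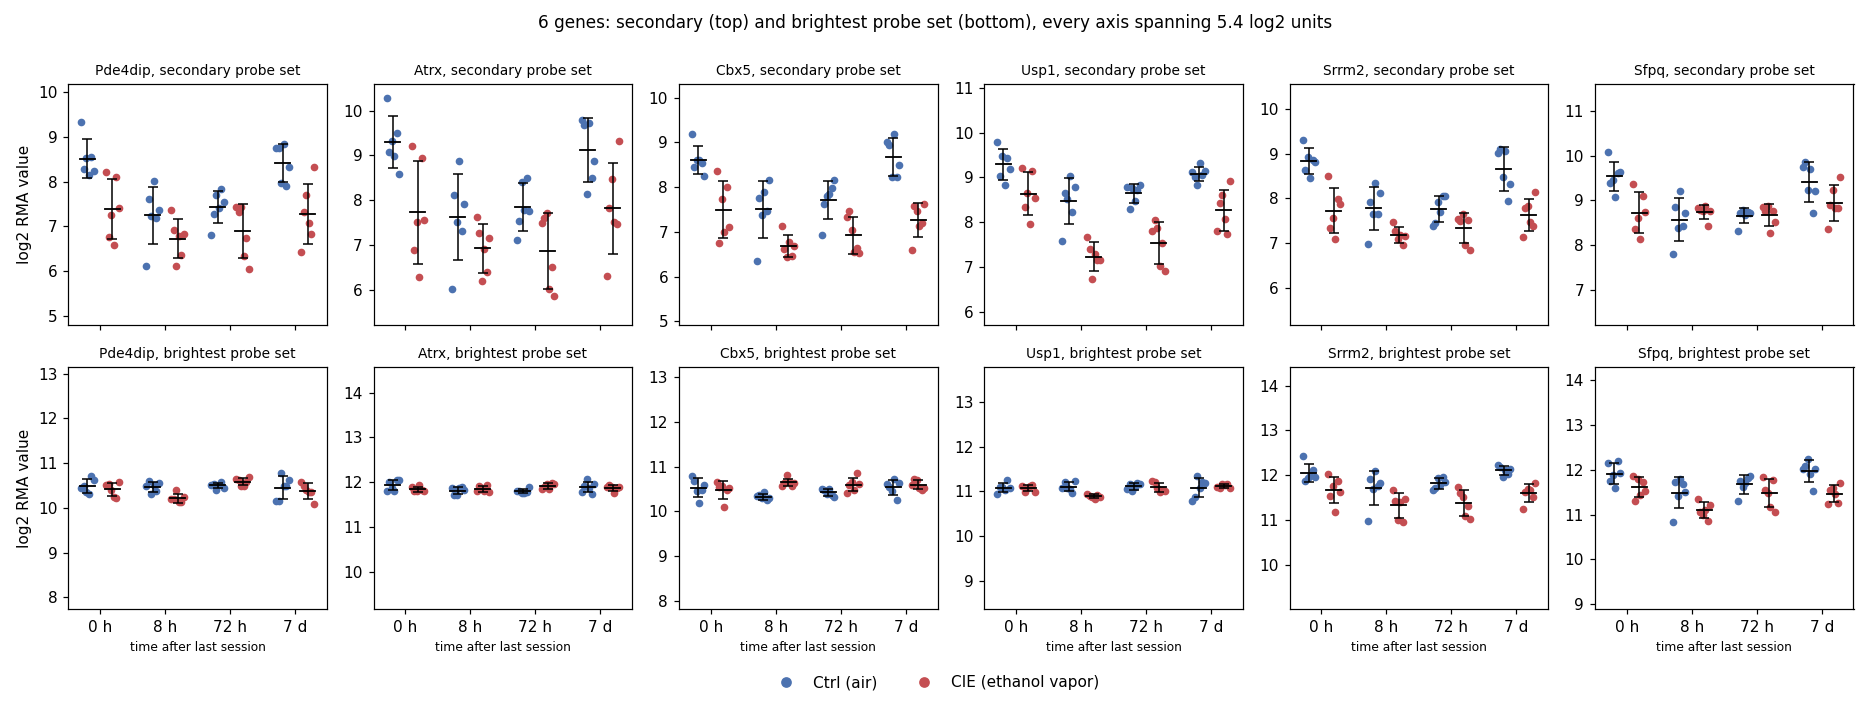
Log2 level in each mouse of members and of the partner of the same gene, by treatment and time, for 6 genes (Pde4dip, Atrx, Cbx5, Usp1, Srrm2 and Sfpq), with group means and SD, each panel spanning 5.4 log2 units. For Atrx at 0h the member runs from 6.27 to 10.29 over both groups and the partner from 11.79 to 12.05.

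At 8h fewer members passed the test. Of 200, 4 were called lower (2.0%) and 0 higher, where 0.555% of all secondary probesets were called lower and 2.01% higher. The median difference was -0.49, from -1.24 to 0.31, with 188 negative and 88 at an unadjusted p below 0.05, where 19.4% of all secondary probesets were. The 4 were Bptf (-1.24, SE 0.24, adjusted p = 0.00069 in limma), Usp1, a deubiquitinating enzyme of DNA repair (-1.24, SE 0.22, 0.00023), Mia3, which serves the export of large cargo from the endoplasmic reticulum (-1.04, SE 0.21, 0.0011), and Elf2, an ETS transcription factor (-0.87, SE 0.22, 0.0096). Usp1 had 7.58, 8.58 and 9.03 in Ctrl and 6.72, 7.21 and 7.67 in CIE, which overlapped only at the edge. In 12 members the difference was positive but not called, the most in Map1b, a microtubule-associated protein, and Spop, a ubiquitin ligase adaptor (both 0.31), and in Maoa, monoamine oxidase A (0.24). Without Ctrl mouse 4, the lowest of its group, 28 members were called in place of 4.

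Among the partners at 8h, 4 were called, where 2.29% of all brightest probesets were, and all 4 rose. They were Xrn2, a nuclear exonuclease of transcription termination (0.34), Gna13, a G protein subunit (0.31), Pdik1l, a kinase (0.21), and Slc1a2 (0.20). Their members differed by -0.44, -0.03, -0.21 and -0.48, none of them called. The median partner difference was -0.00, from -0.69 to 0.34.

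At 72h, 0 members were called by limma, where 0% of secondary probesets were called in either direction, and 119 had an unadjusted p below 0.05, as did 11.0% of all secondary probesets. Under array weights 2 were called. The median difference was -0.55, from -1.11 to 0.01, and 199 of 200 were negative, Sfpq being the exception. Among the genes whose ranges were read, Usp1 did not overlap between the groups, with 8.30, 8.74 and 8.82 in Ctrl and 6.90, 7.67 and 8.04 in CIE (-1.11, adjusted p = 0.018 in limma). Nor did Chd4 (8.21, 8.60 and 8.69 against 7.01, 7.75 and 8.06) or Mia3 (9.22, 9.55 and 9.88 against 8.03, 8.70 and 9.00). The share of members, or of all probesets, without overlap was not counted. Of all 45037 probesets, 3 were called at this time. Of the partners 0 were called, where 0.00550% of brightest probesets were, and 42 had an unadjusted p below 0.05, as did 7.57% of all brightest probesets. Their median difference was 0.05, with 129 of 179 positive, where 10292 of all 18193 brightest probesets were. The mean of the partners was lower in the CIE mouse in 5 of 36 pairs of mice, with group means of 10.44 in CIE and 10.41 in Ctrl.

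At 7d, 25 members (12.5%) were called lower and 0 higher, where 1.13% of all secondary probesets were called lower and 0.633% higher. All 200 differences were negative, with a median of -0.78 and a range from -1.42 to -0.07, and 166 had an unadjusted p below 0.05, as did 23.2% of all secondary probesets. The largest among the 25 were in Cbx5 (-1.42, SE 0.25, adjusted p = 0.0014 in limma), Cfap97 (-1.38, SE 0.31, 0.0062) and Dnmt3a, which places new DNA methylation (-1.28, SE 0.29, 0.0073). Chromatin genes among the 25 also included Bptf (-1.06), Chd4 (-1.04), Chd2 (-1.03) and Kdm5a (-0.92). Transcription factors were Myt1l, which maintains neuronal identity (-1.04), Elf2 (-0.97) and Tef (-0.92), and splicing and speckle proteins were Srrm2 (-1.03), Safb2 (-0.87) and Luc7l3 (-0.70). Mia3 (-1.12), the phospholipid flippase Atp8a1 (-1.16) and the actin-binding protein Enc1 (-1.12) act elsewhere in the cell. The count was 2 without Ctrl mouse 18, Ctrl mouse 22 or CIE mouse 7, 3 without CIE mouse 45, 4 without Ctrl mouse 54, 7 without CIE mouse 9, 10 without CIE mouse 37 or Ctrl mouse 80, 41 without Ctrl mouse 70 and 61 without CIE mouse 59, and it was 8 with the array sets as a block.

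For some of the genes whose ranges were read, the groups of 7d did not overlap. The share of all members or probesets for which this held was not counted. Cbx5 had 8.22, 8.72 and 9.18 in Ctrl and 6.59, 7.33 and 7.63 in CIE, while its partner had 10.25, 10.58 and 10.71 in Ctrl and 10.47, 10.56 and 10.71 in CIE. Dnmt3a had 8.49, 9.16 and 9.67 against 6.98, 7.83 and 8.45. Mia3 had 9.86, 10.23 and 10.50 against 8.66, 9.05 and 9.73. Pde4dip, with 7.90, 8.54 and 8.85 against 6.42, 7.20 and 8.32, overlapped and was not called (-1.15, adjusted p = 0.018 in limma). Of the partners, Nfyb, a subunit of the CCAAT-binding factor NF-Y, rose by 0.29, and Rufy2 fell by 0.41, with 1.03% of all brightest probesets called. For the cell type markers, signals were summed on the linear scale, where the brightest marker weighs most, and the log2 of the sum was taken. For neuron markers this value ran at 7d from 15.21 to 15.31 in Ctrl and from 15.31 to 15.36 in CIE. Of these markers 0 of 6 were called, and the sum was not tested. For choroid plexus markers it ran from 8.55 to 10.93 in Ctrl and from 10.53 to 12.08 in CIE. Here 1 of 6 was called higher, and Otx2 had a mean log2 value of 3.86. Of the other lists, 1 of 6 microglia markers was called higher and 1 of 3 striatum markers lower. Of all brightest probesets, 0.852% were called higher and 0.176% lower at this time. The part of these markers in the result was not tested.

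Of the 200 members, 41 were called at 1 time or more and 159 at none. The calls of 0h and 7d, which came from different mice, shared 9 members, 37.5% of those at 0h and 36.0% of those at 7d. These were Acbd3, Bptf, Cbx5, Cfap97, Chd2, Chd4, Enc1, Itsn2 and Srrm2. Bptf was called at 0h, 8h and 7d. Elf2 and Mia3 were called at 8h and 7d. Since all members go together from mouse to mouse, such an overlap is not the sum of separate agreements. Of all 45037 probesets, 865 were called at 0h and 604 at 7d. The paper reports that hippocampal genes regulated at these times also overlapped significantly, so shared calls are not particular to the members. The shares of all secondary probesets called at both times, or at any time, were not counted.

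The difference between the member and its partner was then tested in the same way over all 16746 pairs of the array. At 0h this gap widened in 26 member pairs and narrowed in 0, where 1.76% of all pairs were called lower and 0.537% higher. At 7d it widened in 22 and narrowed in 0, where the shares were 1.57% and 0.394%. At 8h it widened in 8 and narrowed in 1, where 1.25% were called lower and 2.67% higher, and at 72h it widened in 1, where 0.0776% were called lower and 0.0836% higher. The median differences were -0.77, -0.47, -0.60 and -0.77, close to those of the members alone, as the median partner difference lay between -0.00 and 0.05. Among the called pairs of 0h the largest were in Cfap97 (-1.56), Ubtf (-1.40), Ddx46 and the ubiquitin ligase Nedd4 (both -1.39). Among those of 7d they were in Cfap97 (-1.57) and Cbx5 (-1.47, SE 0.25, adjusted p = 0.00077 in limma). The pair called at 72h was Usp1 (-1.09, SE 0.22, adjusted p = 0.0083), and at 8h Naa15, a subunit of the N-terminal acetyltransferase, was called as a pair (-0.67, SE 0.12, 0.00024) though not as a member. With the array sets as a block the counts of widened pairs were 0 at 0h, 11 at 7d and 0 at 72h. At 0h the count was 1 without Ctrl mouse 2, CIE mouse 19 or CIE mouse 57, 8 without CIE mouse 72, 9 without Ctrl mouse 20 or CIE mouse 43, 13 without Ctrl mouse 56 and 70 without CIE mouse 11. At 7d it was 2 without CIE mouse 7, 3 without Ctrl mouse 22, 4 without Ctrl mouse 18, Ctrl mouse 54 or CIE mouse 45, 11 to 14 without CIE mouse 9, CIE mouse 37 or Ctrl mouse 80, 38 without Ctrl mouse 46 and 79 without CIE mouse 59. At 8h the 9 called pairs became 27 without Ctrl mouse 4, 5 without Ctrl mouse 8 or 42 and 4 without CIE mouse 23. The Usp1 pair of 72h was lost in most such fits, and 0 pairs were called without Ctrl mouse 6, 24, 44, 52 or 68 or CIE mouse 33, 35, 61 or 71.

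**Figure D5:**
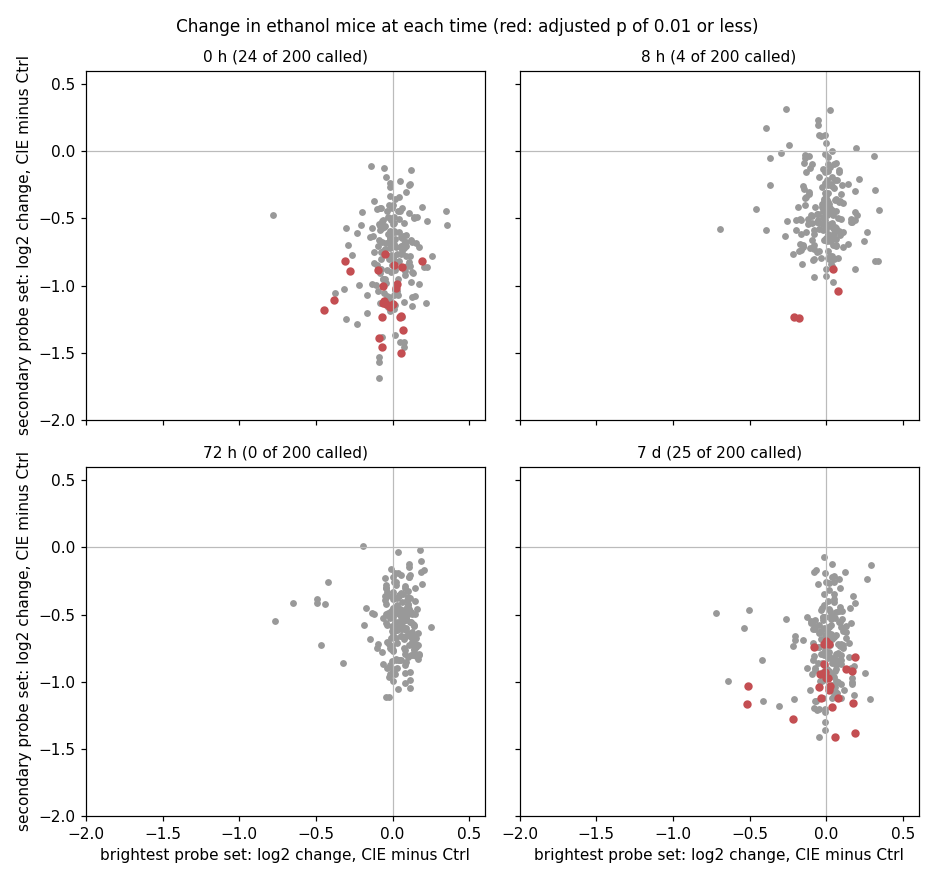
CIE minus Ctrl log2 difference of each of the 200 members against that of its partner, 1 panel per time, with called members marked. The members lie below 0, apart from 12 at 8h and 1 at 72h, with medians of -0.77, -0.49, -0.55 and -0.78, and the partners centre near 0.

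A few genes departed from this pattern. The Srrm2 partner, with r of 0.903, was itself lower at 7d, with 11.96 to 12.23 in Ctrl and 11.24 to 11.83 in CIE, without overlap and without a call (-0.51, adjusted p = 0.023 in limma). The Thoc2 partner differed by -0.78 at 0h (adjusted p = 0.096 in limma), more than the Thoc2 member (-0.47). Sfpq was the pair called in the other direction at 8h (0.57, SE 0.13, adjusted p = 0.0045 in limma). More of this came from the partner, which differed by -0.39, with 10.83, 11.60 and 11.79 in Ctrl and 10.86, 11.08 and 11.36 in CIE, than from the member, which differed by 0.17 (adjusted p = 0.72 in limma). The member had 7.80, 8.58 and 9.21 in Ctrl and 8.43, 8.77 and 8.86 in CIE at 8h, after 9.07, 9.53 and 10.07 against 8.14, 8.67 and 9.37 at 0h.

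Whether the CIE difference itself changed between times was tested for each of the 6 pairs of times. By limma 0 members passed in any of them, with 11, 7, 0, 0, 2 and 3 members at an unadjusted p below 0.05 for 8h against 0h, 72h against 0h, 7d against 0h, 72h against 8h, 7d against 8h and 7d against 72h, where the shares of all secondary probesets ran from 7.62% to 13.0%. The shares of all secondary probesets called were 0.0418%, 0.0478%, 0.0358%, 0.0299%, 0.0358% and 0%. The median changes of the difference were 0.30, 0.20, 0.01, -0.10, -0.30 and -0.20. The larger counts of calls at 0h and 7d therefore did not come with a tested difference from 8h and 72h. Among member pairs, Sfpq passed for 8h against 0h (1.08, adjusted p = 0.0034 in limma), where 0.0179% of all pairs were called higher.

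The members also differed with time in Ctrl mice that had no ethanol. Against Ctrl mice at 0h, 29 members (14.5%) were called lower at 8h, where 1.34% of all secondary probesets were, with all 200 negative and a median of -0.85. At 72h 10 were called lower, where 0.890% were, with all 200 negative and a median of -0.75. At 7d 0 were called by limma, where 0.0836% were called lower, with a median of -0.08 and 2 members at an unadjusted p below 0.05, where 11.5% of all secondary probesets were. The largest among the 29 called at 8h were Nktr, a cyclophilin with a serine- and arginine-rich domain (-1.59, SE 0.33, adjusted p = 0.0046 in limma), Nedd4 (-1.52), Peli1, a ubiquitin ligase (-1.48), Ddx46 (-1.41), Ubtf and Cfap97 (both -1.38). Of the partners 0 were called in these 3 comparisons. They share the Ctrl mice of 0h with one another and with the 0h comparison of CIE and Ctrl, so a high level in those mice enters all of them. Without Ctrl mouse 4 (8h), the lowest of its group, 0 members were called at 8h, and without Ctrl mouse 2 (0h), the highest of its group, 1 was. The count at 8h was 4 without Ctrl mouse 32 or 66, 6 without Ctrl mouse 20 or 56, 16 without Ctrl mouse 79, 50 without Ctrl mouse 38 and 80 without Ctrl mouse 42. That at 72h was 0 without Ctrl mouse 2, 6, 16 or 44, 1 without Ctrl mouse 20 or 56, 2 without Ctrl mouse 68, 3 without Ctrl mouse 12 or 52 and 23 without Ctrl mouse 38. With the array sets as a block both counts were 0.

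Over all probesets of the gene lists, and not the members alone, the splicing and speckle list had 10 of 200 secondary probesets lower and 0 higher at 0h, where 1.41% of all secondary probesets were lower, and 3 of 71 brightest ones lower, where 0.390% of all were. At 8h it had 1 secondary probeset lower and 5 higher, where the shares of all were 0.555% and 2.01%, so that its 5 of 200 lay near the share of the array. At 72h it had none of either, and at 7d 4 lower and 0 higher, where 1.13% of all were lower, with none of its brightest probesets called. The chromatin list had 11 lower and 2 higher of 157 secondary probesets at 0h, 3 lower and 3 higher at 8h, and 7 lower and 0 higher at 7d. Of its 69 brightest probesets, 1 was higher at 0h, 2 were lower at 8h, and 2 were higher and 1 lower at 7d. The shares of all brightest probesets for these were 1.25%, 0.693%, 0.852% and 0.176% in turn. Of 26 secondary paraspeckle probesets, 4 were lower at 0h and 1 higher at 8h. Of 181 secondary probesets of long neuronal genes, 2 were lower at 0h, 4 higher at 8h and 3 lower at 7d, each near the share of all secondary probesets. The median difference at 0h was -0.10 for secondary splicing probesets and -0.08 for chromatin ones, against 0.00 over all secondary probesets and -0.77 for the members. The list counts of secondary probesets include called members named above. At 0h these were, among others, Luc7l, Rbm5 and Srrm2 for splicing and Chd4, Bptf and Chd2 for chromatin. At 7d they included Srrm2 and Luc7l3, and Dnmt3a, Bptf, Chd4, Chd2 and Kdm5a. The list counts are therefore not separate from the calls of members.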

How the data were processed

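RNA from the hippocampus of individual mice was hybridised to Affymetrix Mouse Genome 430 arrays. The deposited values are log2 expression values that the authors made by robust multi-array average (RMA), and per the study's methods arrays were quantile normalized and corrected for hybridization batch with ComBat. No tool version is given in the sources used here. Such steps can shrink differences and leave equal values on several arrays. The values were used as deposited. Symbols came from the platform annotation: of 45037 probesets, 34945 had 1 symbol, 932 several and 9160 none, giving 18193 genes, 9009 with a secondary probeset. The members and all gene lists were chosen with earlier results of these data known.

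A mean per group was fitted over all 48 arrays with limma 3.58.1 (R 4.3.3), for each probeset and for each member minus partner difference over all secondary probesets. P-values were two-sided, adjusted after Benjamini and Hochberg across the probesets or pairs of each comparison, and called at 0.01 or less. Group values are mean ± SD, and n is the number of mice. Python 3.11.15 (numpy 2.4.6, pandas 2.3.3) gave the correlations and exact permutation tests. Labels call the samples biological replicates of individual mice. The fit was tested on simulated data with independent noise for each probeset. The members went together from mouse to mouse, so that run cannot show how calls behave among them. Members named are those called, those of highest r, and those of genes with several members, with the genes of the fixed lists. Array sets sharing exactly equal values (tolerance 1e-08) served as a block. RNA quality measures from control probesets were not used here, as none was in the table. Alternatives were a filter on dim probesets (mean log2 of 5 or more), trend and robust fitting, array weights, centring of arrays, the array set as a block and leaving out each mouse. The number of arrays limits the precision.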

Additional observations from a re-analysis of the deposited data

Results flagged for a closer look

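In 12 of 248 groups of 6 mice, counted over the member, partner and Malat1 values shown, 1 mouse stood apart from the other 5 by more than Dixon's critical share of the group's range. Chance alone does so in about 1 in 20 groups. Ctrl mouse 4 was low at 8h in the Thoc2 member (8.58), the Kcnj9 member (6.90) and the Srrm2 partner (10.98). Ctrl mouse 6 was low at 72h in the Malat1 mean (9.36) and in the Sfpq member (8.32). Ctrl mouse 2 was high at 0h in the Pde4dip member (9.34). CIE mouse 41 was low at 8h in the Sfpq member (8.43). Among partners, low values stood apart for Kcnj9 in Ctrl mouse 56 at 0h (8.40) and Ctrl mouse 22 at 7d (8.15), for Cbx5 in CIE mouse 57 at 0h (10.09) and for Chd4 in CIE mouse 35 at 72h (9.78), and the mean of all partners stood apart in Ctrl mouse 24 at 72h (10.38).

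The Sfpq member minus partner difference between CIE and Ctrl changed from 0h to 8h by 1.08 (adjusted p = 0.0034 in limma for the change itself), the only member pair to pass such a test among the 6 pairs of times.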

How the results depend on the processing

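The median difference of the members stayed negative at all 4 times under every alternative run: from -0.77 to -0.66 at 0h, -0.55 to -0.49 at 8h, -0.55 to -0.47 at 72h and -0.80 to -0.78 at 7d, and, leaving out each mouse of the 2 groups compared, from -0.91 to -0.63, -0.68 to -0.36, -0.63 to -0.44 and -0.92 to -0.62. The counts of called members were less stable. At 0h, 24 became 0 with the array sets as a block, a fit that also drops Ctrl mouse 2 (0h), which could not be placed in a set, and 9 with array weights. At 7d, 25 became 8 and 45, and at 8h and 72h array weights gave 36 and 2 in place of 4 and 0. In Ctrl mice at 8h against 0h, 29 became 0 under either, and at 72h against 0h, 10 became 0 with the block, 6 with trend and robust fitting and 1 with weights. Of the partners, the 2 called at 0h became 0 with the block and 1 with weights, the 4 at 8h became 7 with the filter on dim probesets, 1 with the block and 25 with weights, the 0 at 72h became 2 with weights, and the 2 at 7d became 1 with the block. Pairs called went from 26 to 0 (block) and 3 (weights) at 0h, from 9 to 41 (weights) at 8h, from 1 to 0 (block) and 6 (weights) at 72h, and from 22 to 11 (block) and 80 (weights) at 7d. The cause was not tested.

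Leaving out in turn each of the 12 mice of the 2 groups compared, members called ranged from 2 to 68 at 0h, 3 to 28 at 8h, 0 to 0 at 72h and 2 to 61 at 7d. At 0h the lowest counts were 2 without CIE mouse 57 and 3 without Ctrl mouse 2, and the highest 68 without CIE mouse 11. At 7d they were 2 without Ctrl mouse 18, Ctrl mouse 22 or CIE mouse 7, and 61 without CIE mouse 59. The range was 0 to 80 for Ctrl 8h against 0h, 0 to 23 for Ctrl 72h against 0h, 0 to 3, 1 to 8, 0 to 0 and 0 to 5 for partners, and 1 to 70, 4 to 27, 0 to 2 and 2 to 79 for pairs. Cbx5 and Mia3 at 7d, Mia3, Usp1 and Bptf at 8h and Srrm2 and Enc1 at 0h were called whichever of the 12 mice of the 2 groups compared was left out. With the block the adjusted p from limma was 0.0035, 0.0042, 0.0029, 0.00076, 0.0018, 0.016 and 0.022 in turn. With the brightest Malat1 probeset in place of the mean of all 7, the log2 difference of Malat1 went from -1.03 to -0.18 at 0h, -0.37 to -0.22 at 8h, -0.55 to 0.014 at 72h and -0.88 to -0.04 at 7d. The labels give every mouse its own number and so pair none. The array sets, which no label names, served as the block above. They also served for the untested differences within sets and for a ranking with set means removed. Apart from the block, no paired test was run.

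Of the 200 members, 164 were chosen by Spearman's rank, 190 with array set means removed, 191 without Ctrl mouse 2, 179 without Ctrl mouse 4 (8h), 187 without _x_at and _s_at probesets and 200 with the filter on dim probesets.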
